A study of Microtus ochrogaster with 51 samples.

Results

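In the nucleus accumbens of the prairie vole, Microtus ochrogaster, 12277 of 23038 genes met the conditions on level and identifier given below. Of these, 150 were picked because their level after 4 weeks of separation differed from both paired groups, which themselves lay close together. Of the 150 genes, 14 were higher and 136 were lower after separation. They were selected on group medians of log2(TPM + 0.5), where TPM is a length-corrected share of the reads of a library. The 3 differences of medians were these: separated minus 2-week paired, separated minus 6-week paired, and 6-week minus 2-week paired. The first and second had to share a sign and the third had to lie within 0.25 of zero, which 6527 genes met. The 150 with the largest value of the smaller of the first 2 differences were kept. All 3 differences are therefore a description of how the genes were chosen, and they also share libraries with each other.

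Each library came from the dissected nucleus accumbens of 1 vole that had lived with a partner of the opposite sex. The groups were 2wk_pair (paired for 2 weeks), 4wk_sep (paired for 2 weeks, then isolated for 4 weeks per the series design) and 6wk_pair (paired for 6 weeks). Of 51 libraries, 48 stood behind the medians: 9 females and 9 males at 2 weeks, 12 and 12 after separation, and 3 and 3 at 6 weeks. Every group had been paired, so none had been kept without a partner from the start, and the labels give no age. The libraries are from separate animals, but partners share a cage and a history until separation. Cohorts 1 and 2 held only 2-week pairs and cohorts 3 and 4 only the later groups, so treatment and cohort cannot be told apart in any comparison with 2-week pairs.

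The nucleus accumbens is the ventral part of the striatum. It receives dopamine input from the midbrain and takes part in reward and motivation. Prairie voles form lasting pair bonds, and receptors for oxytocin, dopamine and opioids in this region are known for their part in bond formation and in the response to partner loss. The deposited tables name genes by identifier, and 0 of 23038 identifiers could be matched to a symbol. The 150 genes therefore cannot be sorted here by function, and the lists of marker, opioid, dopamine, oxytocin and stress hormone genes could not be applied. For the same reason the tissue was not checked against its markers. In bulk tissue, fewer cells of a type and less RNA per cell cannot be told apart.

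The shift was mostly downward and moderate in size. Over the 136 lower genes the median difference was -0.71 against 2-week pairs and -0.64 against 6-week pairs, on the log2(TPM + 0.5) scale. Over the 14 higher genes it was 0.59 against both. The corresponding medians over all 12277 genes were -0.10 and -0.024. Between the paired groups (6-week minus 2-week) the median was 0.0024 for the higher and -0.033 for the lower genes, against -0.090 over all genes. The smaller of the 2 separation differences had a median of 0.60, or 1.52-fold, and reached 1.37. At the edge of the list the last gene inside had a smaller difference of 0.4677 and the first gene outside had 0.4675, so no gap marks the end of the list. Differences against 2-week pairs ran from 0.48 to 1.13 for the higher genes and from -1.39 to -0.48 for the lower genes.

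The chosen genes were less abundant and more variable than most. Their mean level had a median of 8.71 TPM, against 13.9 TPM over all genes the rule could take. A mean under 5 TPM was found for 50 of them (33.3%, against 21.8% of all). Within combinations of treatment, sex and cohort, the SD of log2(TPM + 0.5) had a median of 0.784, against 0.392 over all genes. The ratio of normalized count to TPM, which grows with the length counted for a gene, was 0.556 of the overall median for the higher genes and 0.943 for the lower genes. Read support was not minimal: the mean normalized count had a median of 233.5, against 634.4 over all genes, and it was at least 10 for all 150.

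To show the 150 genes in each library, a score was formed as the mean log2(TPM + 0.5) of the 14 higher genes minus that of the 136 lower genes. Its lowest, median and highest values were -2.78, -0.71 and 0.64 in the 18 2-week libraries. They were -1.71, 0.55 and 1.71 in the 24 separated libraries. In the 6 libraries of 6-week pairs they were -1.99, -0.72 and 0.92. The groups overlapped throughout: 12 of 24 separated libraries lay above every 2-week library, and 6 of 24 lay under the 2-week median. Those 6 were both partners of pairs 17, 31 and 32. Scores above 0 were found in 16 of 24 separated, 4 of 18 2-week and 2 of 6 6-week libraries.

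**Figure D1:**
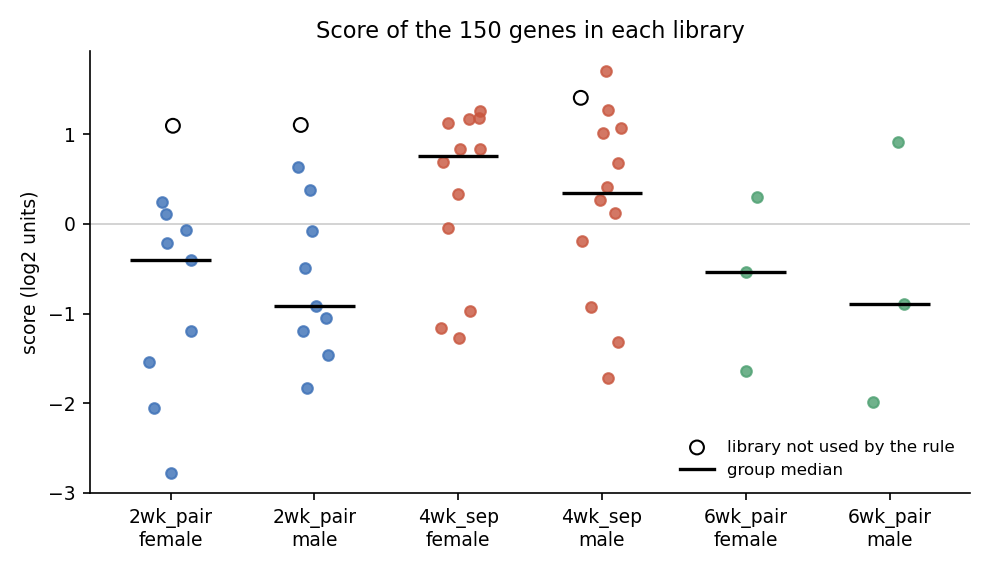
The score of the 150 genes (log2 units, vertical axis) is plotted for each library by treatment and sex, with filled points for the 48 libraries behind the medians, open circles for the 3 libraries the choice did not use, and bars at the group medians. Separated voles spread from -1.71 to 1.71 and 6-week pairs from -1.99 to 0.92, so the groups differ in their medians and overlap in their range.

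The same spread was seen gene by gene. A gene was counted on the separated side in a library when its level lay beyond the midpoint between the separated and the 2-week median. The number of such genes was 3 at the lowest, 35 at the median and 130 at the highest in 2-week libraries. After separation it was 8, 137.5 and 146. Separated libraries thus ranged from nearly the whole set shifted to almost none of it. All genes moved alike to a lesser degree. The share on the separated side was 74.95% of all genes in the separated library with 146, and 29.72% in that with 8. In the 2-week libraries with 130 and 3 it was 69.41% and 22.16%. The midpoints come from medians used in the choice, so these counts are a description. No gene of the 150 separated the libraries completely: the separated and the 2-week libraries overlapped for every one, as did the separated and the 6-week libraries (0%, also 0% of all genes). All 6 libraries of 6-week pairs lay on the paired side of the separated median for 13 of the 150 genes, against 2.04% of all genes, in a contrast that the choice used.

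The 6-week group rested on 3 pairs, and these differed strongly. Pair 18 scored -1.64 in the female and -1.99 in the male, and pair 22 scored -0.54 and -0.89. Pair 27 scored 0.30 in the female and 0.92 in the male, which placed it among the separated voles. Against pair 18, the separated median was lower by a median of -1.47 for the lower genes and higher by 0.77 for the higher genes. The values against pair 22 were -0.61 and 0.57. Against pair 27 they were 0.12 and -0.072, the opposite of the direction by which the genes had been chosen. The direction held for 148 of 150 genes against pair 18, for 149 against pair 22 and for 53 against pair 27. Over all genes the shares were 71.0%, 56.4% and 40.6%. The same 3 pairs gave the 6-week median by which the genes were chosen. These counts therefore describe what the choice rested on and are no independent check of it.

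**Figure D2:**
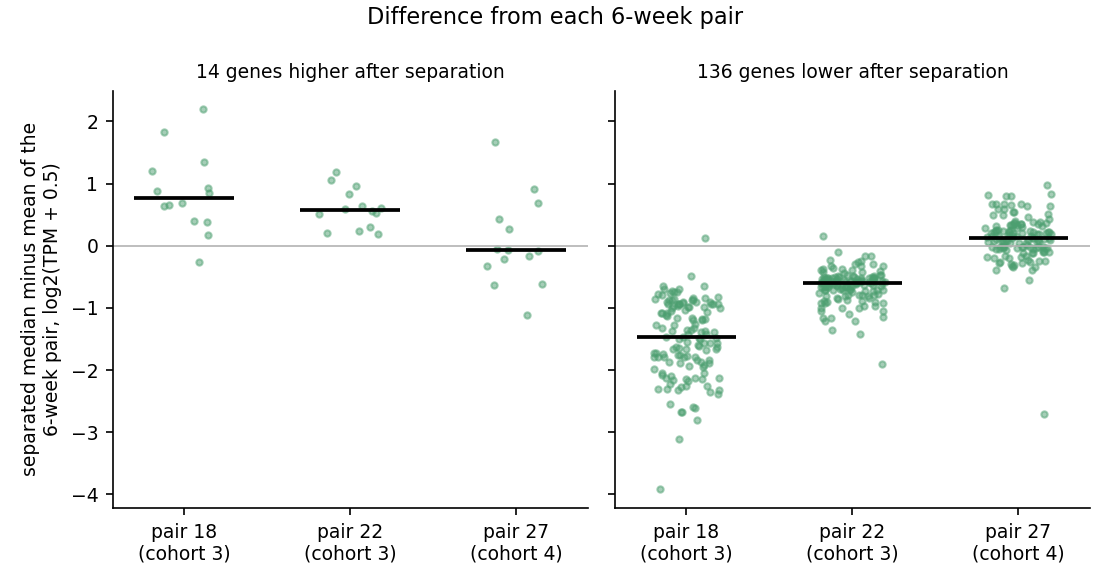
For each of the 3 6-week pairs, points give the difference on the log2(TPM + 0.5) scale between the separated median and the mean of the pair's 2 libraries for 1 gene each, with the 14 higher genes in the left panel, the 136 lower genes in the right panel, and bars at the median. The medians lie at 0.77 and -1.47 for pair 18, 0.57 and -0.61 for pair 22, and -0.072 and 0.12 for pair 27.

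This split follows cohort, since pairs 18 and 22 were in cohort 3 and pair 27 was the only 6-week pair of cohort 4. Within cohort 3, the medians of separated voles and 6-week pairs differed in the chosen direction for 149 of 150 genes (71.2% of all genes). Pairs 18 and 22 made up most of the 6-week group behind the choice, so this agreement was largely built in. The median differences there were 0.70 for the higher and -0.88 for the lower genes. Within cohort 4 the direction held for 61 of 150 (43.4% of all genes), with medians of -0.041 and 0.074. A treatment by cohort interaction, added after the data had been seen, was tested with limma across 13085 genes. It passed an adjusted p of 0.05 for none of the 149 genes tested, with a background of 0% over all genes and a smallest adjusted p of 0.784. At an unadjusted p under 0.05 it counted 17, against 4.65% of all genes. With the replicate block the count was 7 (0.795% of all), and with TPM rescaled without 37 abundant left-out identifiers it was 32 (5.58% of all). With 1 pair in cohort 4, a difference between cohorts and a difference between pairs cannot be told apart.

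The membership of the list depended on those pairs as well. When the choice was repeated without pair 18, 31 of the 150 genes were found again. Without pair 22 the number was 29, and without pair 27 it was 31. The new list held 81 higher genes without pair 18, but 1 without pair 22 and 6 without pair 27. Leaving out 1 2-week pair found 104 to 120 genes again, and leaving out 1 separated pair found 127 to 138. Without cohort 3 only 4 genes were found again, and without cohort 4, 23.

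The 2-week comparison also moved with cohort. The 4 libraries of cohort 1 had a median score of -1.12, and the 14 libraries of cohort 2 had -0.30. Within the separated group the medians were 0.38 in cohort 3 and 0.69 in cohort 4. Cohort contrasts inside 1 treatment were not used in the choice and were tested with limma. Cohort 2 against cohort 1 passed an adjusted p of 0.05 for none of the 150 genes and none of 14090 genes (0%). The count was also 0 of the 150 with edgeR, and 0 with DESeq2, which called 18 genes in all. At an unadjusted p under 0.05, 27 of the 150 were counted, 25 of them lower in cohort 2, against 12.1% of all genes. With partners as a replicate block the count was 16, against 5.73% of all genes. Cohort 1 consisted of pairs 2 and 8 only, so this contrast rests on those pairs. The median log2 difference was -0.50 over the 150 genes and -0.005 over all. With the read total as a covariate, 5 were counted, against 2.51% of all, and the median was -0.17.

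Among separated voles, cohort 4 against cohort 3 gave no call at an adjusted p of 0.05 in limma for the 150 genes (0% of 14164 genes), and none with edgeR or DESeq2. An unadjusted p under 0.05 was reached by 6 of 150, against 2.83% of all genes. With partners as a replicate block it was reached by 3, against 0.77% of all genes. The fitted difference was below 0 for 108 of the 150 genes, with a median of -0.11 against -0.008 over all. With the read total as a covariate it was below 0 for 126, with a median of -0.20, and 10 had an unadjusted p under 0.05, against 4.53% of all.

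Separated and 2-week paired voles were compared across 14151 genes of the normalized table, in which each read count is divided by a size factor of its library. With limma on log2(normalized count + 1) and sexes averaged, 38 of the 150 genes passed an adjusted p of 0.05, all of them lower after separation. The background was 3.29% of all genes, and 1.88% in the lower direction. At an unadjusted p under 0.05 there were 86, of which 77 were lower and 9 higher, against 16.6% of all. The median log2 difference was -0.49 over the 150 and -0.002 over all genes. These calls use a contrast on which the genes had been chosen and are a description of it. With edgeR on recovered reads 37 of the 150 passed, against 3.48% of all genes, and with DESeq2 44, against 4.9%. With partners as a replicate block the count was 0, the smallest adjusted p was 0.0655, and 74 had an unadjusted p under 0.05, against 10.3% of all genes. The number also moved with single pairs, from 18 without the 2-week pair 16 and 25 without the 2-week pair 8 to 61 without the separated pair 17. The share of all genes called moved with it, at 1.67%, 2.03% and 5.72%. Without cohort 1, 2, 3 or 4 the number was 18, 1, 27 and 0, where all genes gave 1.79%, 0.0777%, 2.19% and 0.0495%. The median log2 difference over the 150 was then -0.36, -0.89, -0.54 and -0.43. An unadjusted p under 0.05 was reached by 64, 110, 84 and 62, against 11.6%, 24.7%, 14.3% and 9.5% of all genes. The fit without cohort 2 kept only 4 libraries of 2-week pairs.

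Against 6-week pairs, limma on log2(TPM + 0.5) with sex and cohort as terms gave 0 calls among 149 of the 150 genes that were tested, and 0% of 13085 genes. An unadjusted p under 0.05 was reached by 7, against 0.825% of all. With partners as a replicate block it was reached by 1, against 0.107% of all. The median difference over the genes was -0.37, against -0.057 over all. It was -0.76 without pair 27 and -0.030 without pair 18, and the unadjusted count was 37 without pair 27 and 2 without pair 18, where all genes gave 3.29% and 1.18%. No count model could be run on the 6-week libraries, for which only TPM was used. Between 6-week and 2-week pairs none of 149 genes passed (0% of 13111 genes) and 0 reached an unadjusted p under 0.05, against 2.14% of all, in a contrast that had been required to be small. In that comparison the median was -0.049 with all 3 pairs, 0.31 without pair 27 and -0.46 without pair 18. The small difference between the paired groups thus moved in opposite directions when pair 18 or pair 27 was left out.

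Females and males were pooled in the choice, so sex differences could be tested. Male against female gave no call among the 150 genes with limma, edgeR or DESeq2, against 0.0283% of all genes in limma. Without adjustment 1 reached p under 0.05, against 1.56% of all. The separation effect relative to 2-week pairs, tested as an interaction with sex, passed for none of the 150 (0.00707% of all genes) with limma, edgeR or DESeq2. Without adjustment 1 again reached p under 0.05, against 1.86% of all. The interaction of sex with the difference from 6-week pairs gave 0 calls (0% of all) and 0 at an unadjusted p under 0.05, against 0.566% of all. With partners as a replicate block, male against female counted 3 of the 150 at an unadjusted p under 0.05, against 3.89% of all. The interaction relative to 2-week pairs then counted 4, against 4.57% of all, and neither gave a call among the 150. No sex difference in these genes passed an adjusted p of 0.05 with these numbers of animals.

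The direction held in both sexes for most of the list, although each sex contributed to the pooled medians. Against 2-week pairs it held for 150 genes in females and 149 in males, where all genes gave 85.1% and 85.0% with the direction of the pooled difference. Against 6-week pairs it held for 148 in females and 141 in males, against 63.7% and 54.8%. The difference between the paired groups stayed within 0.25 for 100 of the 150 in females and 87 in males. Applied to females alone the rule found 61 of the 150 again, and to males alone 58. The lists from each sex had 22 genes in common, of 150 in each.

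Partners resembled each other in these genes. Across the 24 complete pairs the score of the female and the score of the male had a Pearson correlation of 0.840 and a Spearman correlation of 0.863. Without the 2 pairs farthest from the median the Pearson correlation was 0.867. Within treatments the values were 0.673 in 9 2-week pairs and 0.886 in 12 separated pairs, with Spearman correlations of 0.717 and 0.811. The median absolute difference between partners was 0.343 score units, against an SD of 1.09 over the 48 libraries. Separated partners had been apart for weeks at sampling, and partners also share a cohort.

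**Figure D3:**
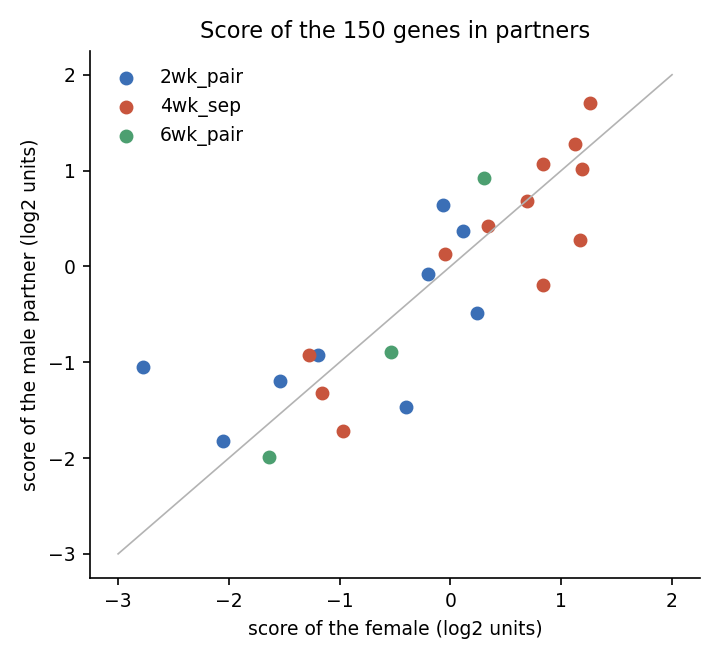
Each point is 1 pair, with the score of the female on the horizontal axis and that of the male on the vertical axis (log2 units), coloured by treatment, and the line marks equal scores. Pairs lie along the line in all 3 treatments, with a Pearson correlation of 0.840 over 24 pairs and the largest difference in the 2-week pair 2 (-2.78 and -1.05).

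Single genes showed the same likeness to differing degrees. After removal of the mean of each treatment, sex and cohort combination, partner correlation could be computed over 19 pairs from combinations of at least 5 libraries. It had a median of 0.77 for the lower genes and 0.29 for the higher genes, against 0.47 over all genes the rule could take. It was above 0 for 147 of 150, and for 10706 of 12277.

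The lower genes moved as a block and the higher genes did not to the same extent. Over the 38 libraries of those combinations, the correlation between 2 lower genes had a median of 0.78, that between 2 higher genes 0.27, and that between a higher and a lower gene -0.37. For 2 genes taken from all 12277 the median was 0.37. The correlation with the score of the other genes was below 0 for 134 of 136 lower genes (median -0.87) and above 0 for 13 of 14 higher genes (median 0.52). Only the mean of each combination was removed, so differences in read total between libraries remain in these correlations. They are given without a test.

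The score also followed measures of the library as a whole. Its Pearson correlation with the first principal component of the 12127 other genes, which held 57.6% of their variance, was 0.897 over 48 libraries. It was 0.943 within the 2-week and 0.959 within the separated group. The component had a median of -10.11 in 2-week, 23.04 in separated and 17.08 in 6-week libraries. With the number of reads on genes, known for 42 libraries (20067514 to 37737711), the correlation was -0.752, and -0.873 and -0.766 within the 2 groups. Median read totals were close, at 27595735 in the 2-week and 27367087 in the separated group. With the TPM share of 37 left-out identifiers at the start of the numbering, which took 30.02% to 60.93% of a library, the correlation was 0.577. Leaving out the 2 farthest libraries gave 0.877, -0.685 and 0.549. The median share of the 37 identifiers was 45.3% in 2-week, 48.83% in separated and 48.98% in 6-week libraries. The part of these measures in the difference between treatments was not tested. Adding 2 of them to the fits reran contrasts used in the choice, so the results are a description. Against 2-week pairs in limma, 38 of the 150 and 3.29% of all genes had passed an adjusted p of 0.05 without covariates. With the read total as a covariate, 53 of the 150 passed, and 5.14% of all genes. The median log2 difference over the 150 was then -0.40. With the first component, added after the data had been seen, 63 passed (9.12% of all genes) and the median log2 difference went from -0.49 to -0.32. Against 6-week pairs the first component gave 0 calls, 26 at an unadjusted p under 0.05 (2.69% of all genes) and a median of -0.20. Scaling moved the values as well. With TPM rescaled without the 37 identifiers, or with median-of-ratios scaling, the median of all genes against 2-week pairs moved from -0.10 to 0. The lower genes then had medians of -0.61 and -0.55 and the higher genes 0.71 and 0.65. Their signs did not change, which the size of the chosen differences fixes, and 92 and 80 of the 150 genes were found again under these scalings.

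The 4 genes named here are the 2 in each direction with the largest smaller difference and a mean of at least 5 TPM. They are extremes of the choice, and their mean normalized counts lay under the median of 233.5 of the 150 genes. ENSMOCG00000003336 had a lowest, median and highest level of 4.63, 8.29 and 39.5 TPM in 2-week pairs. After separation it had 3.14, 18.5 and 88.6 TPM. In 6-week females it stood at 6.00, 5.26 and 21.2 TPM in pairs 18, 22 and 27, and in the males of those pairs at 2.15, 11.6 and 38.3 TPM. Its separated libraries were thus shifted upward with wide overlap, and both voles of pair 27 lay above the median of all separated libraries, the female just under that of separated females (22.6 TPM). In limma against 2-week pairs the log2 difference was 1.15 ± 0.34 (SE) with an adjusted p of 0.0536, just short of the threshold, and the adjusted p was 0.0376 with edgeR, 0.00906 with DESeq2 and 0.274 with the replicate block.

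ENSMOCG00000011363, the second of the higher genes, ranged from 0.615 to 24.1 TPM in 2-week pairs with a median of 4.13. It ranged from 1.50 to 46.7 TPM after separation with a median of 9.65. Its highest 6-week values were 19.9 TPM in the female and 23.1 TPM in the male of pair 27, against 1.33 to 5.72 TPM in pairs 18 and 22. The log2 difference against 2-week pairs was 1.20 ± 0.44 (SE) with an adjusted p of 0.132 in limma, and it did not pass. Both higher genes had low ratios of normalized count to TPM, at 0.059 and 0.048 of the overall median, and mean normalized counts of 59.2 and 25.8. Their TPM rested on fewer reads than that of most genes, as did that of the lower gene ENSMOCG00000015886, with a ratio of 0.12 and a mean normalized count of 37.6.

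ENSMOCG00000015886 was at 1.49, 8.94 and 34.0 TPM in 2-week pairs (lowest, median, highest) and at 0.481, 3.32 and 21.8 TPM after separation. Its 6-week females were at 11.7, 10.2 and 3.70 TPM in pairs 18, 22 and 27, and the males at 21.5, 8.54 and 0.860 TPM. Both voles of pair 27 had less than the others, and the male lay under all but 2 separated libraries. Among the 4 genes it was the only one past the threshold in limma against 2-week pairs, at -1.04 ± 0.30 (SE) and an adjusted p of 0.0457. The adjusted p was 0.0873 with edgeR, 0.0527 with DESeq2 and 0.215 with the replicate block, and ran from 0.0083 to 0.36 over 34 fits, of which 10 passed. Its correlation between partners was 0.80 and its correlation with the score of the other genes -0.86. Between partners, ENSMOCG00000003336, ENSMOCG00000011363 and ENSMOCG00000019167 had correlations of 0.068, 0.070 and 0.23, under the median of 0.47 over all genes.

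ENSMOCG00000019167 was at 1.50, 8.84 and 17.3 TPM in 2-week pairs and at 0.895, 3.10 and 13.5 TPM after separation. Its 6-week levels lay between 2.36 and 12.9 TPM. The log2 difference against 2-week pairs was -0.89 ± 0.32 (SE) with an adjusted p of 0.122 in limma, and no fit passed. Its correlation with the score of the other genes was weak at -0.25, so this lower gene stood apart from the block. Against 6-week pairs the log2 differences of the 4 genes, in the order given, were 1.05 ± 0.51, 0.55 ± 0.60, -0.63 ± 0.53 and -0.74 ± 0.47 (SE), with an adjusted p of 1 for each in limma.

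**Figure D4:**
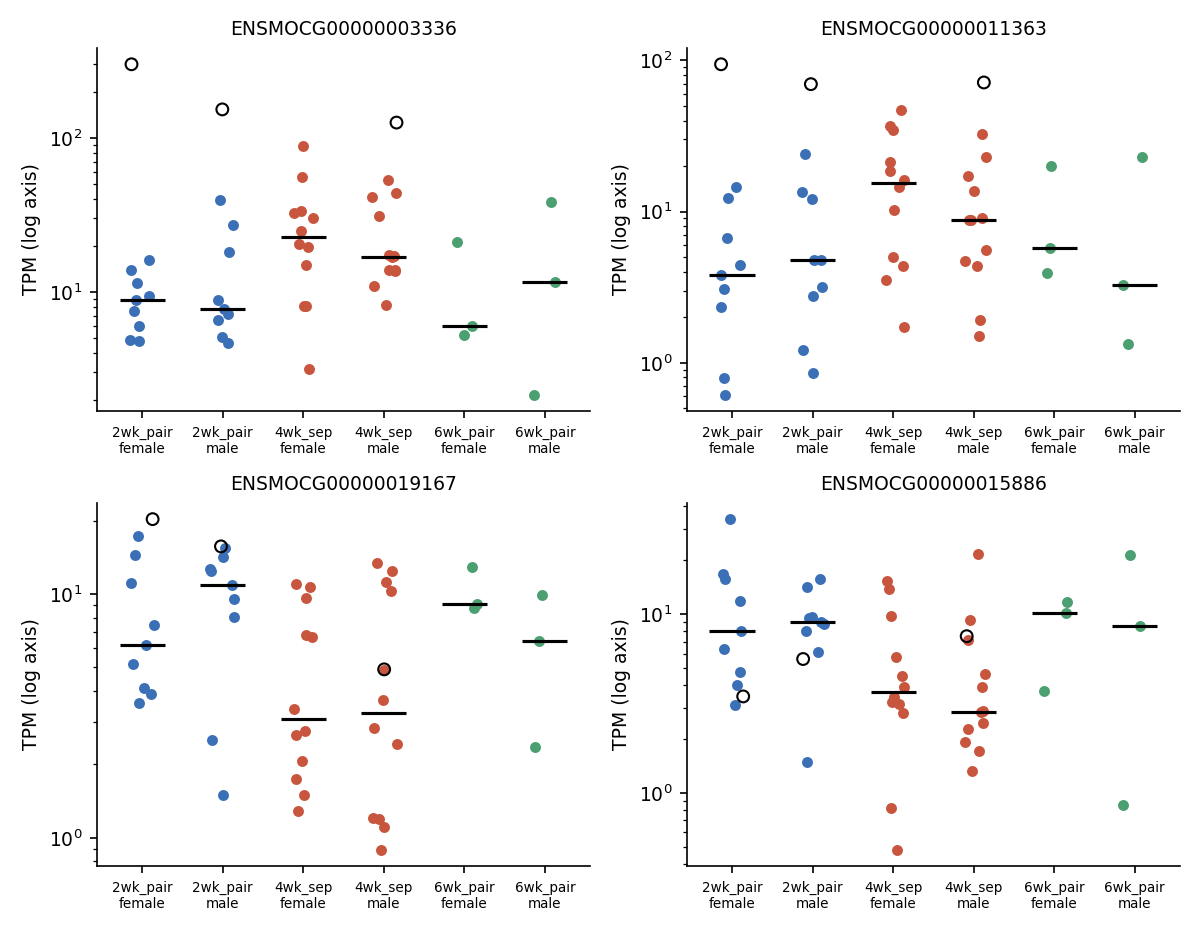
Levels of ENSMOCG00000003336, ENSMOCG00000011363, ENSMOCG00000019167 and ENSMOCG00000015886 (TPM, log axis) are plotted for every library by treatment and sex, with open circles for the 3 libraries the choice did not use and bars at the group medians. For the first gene the medians are 8.87 and 7.76 TPM in 2-week females and males and 22.6 and 16.9 TPM in separated females and males, with overlap in both sexes.

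The choice left out 3 libraries: both voles of the 2-week pair 15 and the separated male of pair 23. In them the 37 left-out identifiers took 11.5%, 12.6% and 9.87% of TPM, far below the range of the other libraries. Their scores were 1.10 in the 2-week female, 1.11 in the 2-week male and 1.41 in the separated male, so both 2-week libraries lay above every other paired library. The higher genes carried this: 12, 13 and 12 of the 14 were on the separated side, against 45, 62 and 68 of the 136 lower genes. ENSMOCG00000003336 reached 300.8, 153.2 and 125.8 TPM in them, above all other libraries. On the count of genes on the separated side they were intermediate, at 57, 75 and 80 of 150 (50.7%, 50.7% and 50.3% of all genes). With 1 or 2 such libraries per treatment no test was made.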

How the data were processed

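The deposited tables cover 51 libraries as TPM and 42 as normalized counts, without the 6-week pairs. Per the submitters' processing notes, DESeq2 and DESeq were used. Aligner, counter, build and annotation: not given in the sources used here. The signal in the authors' normalized table equals reads over a size factor that is constant within a library. Whole reads were recovered from its steps (100.0% of values within 0.01 of a whole number). Depth is unknown for libraries with TPM only. No libraries were identical (0 pairs), and 0 per-sample columns were left unused.

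The 150 genes needed TPM above 0 in all 51 libraries, a mean of at least 1 TPM and an identifier outside the 37 and 4 left out. The genes and lists were chosen with earlier results of these data known. Named genes were the 2 per direction with the largest smaller difference and a mean of at least 5 TPM.

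Fits used limma 3.58.1 (R 4.3.3, trend and robust eBayes, Benjamini-Hochberg over all genes tested). They ran on log2(normalized count + 1) for genes with a mean of at least 10, or on log2(TPM + 0.5). These scales understate changes of low genes. Alternatives included edgeR 4.0.16, DESeq2 1.42.0, scaling, covariates and left-out cohorts or pairs. The pair number pairs partners by the labels, and their consensus correlation over genes was 0.396 in the fit of 42 libraries and 0.379 to 0.498 over all blocked fits. For the 2-week females of pairs 9 and 15, the labels and the normalized table named different libraries as present, and the table's columns decided. The scripts were tested on simulated data.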

Additional observations from a re-analysis of the deposited data

Results flagged for a closer look

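Among 15 groups of 4 to 10 samples checked for the 4 named genes and the score, 1 had a sample far from the others, where chance gives about 1 in 20. It was ENSMOCG00000015886 in 2-week males, whose lowest library (pair 13, 1.49 TPM) stood at 0.995 on the log2(TPM + 0.5) scale.

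The pair 15 libraries, outside the comparisons, had high scores. The score of the 150 genes was 1.1 in the 2-week female and 1.11 in the 2-week male of pair 15, above the highest of the 18 2-week libraries that were used (0.64). The mean log2(TPM + 0.5) of the 14 higher genes was 4.34 and 4.07 in them, against a 2-week median of 2.43, while that of the 136 lower genes was 3.25 and 2.97, against 2-week and separated medians of 3.31 and 2.46. The high scores thus came mainly from the higher genes, and the lower genes were not at the separated level. The share of the 37 left-out identifiers in them, 11.5% and 12.6%, was below that of every library used.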

How the results depend on the processing

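The choice of genes depended on its settings. Of the 150 genes, 60 were found again with group means, 92 with TPM rescaled without the 37 identifiers, 80 with median-of-ratios scaling, 61 in females only and 58 in males only. Without cohort 1, 2, 3 or 4 the numbers were 90, 48, 4 and 23. Leaving out 1 pair gave 29 to 138. The other settings found 100 to 140 again. Among them, a mean of at least 5 TPM left 100 of the 150 eligible. A limit of 0.15 on the difference between the paired groups left 109. Both settings only narrow the choice, so all genes left were found again by construction. The cause was not tested.

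Against 2-week pairs, 38 of the 150 passed. The count was 0 with the replicate block, 2 in the TPM table, and 18, 1, 27 and 0 without cohort 1, 2, 3 or 4. It was 63 with the first component of the other genes as a covariate, chosen after seeing the data, and 18 to 61 when 1 pair was left out. Over all genes the number called was 465, and it was 8 with the replicate block, 51 in the TPM table, 727 with the read total and 1291 with the first component. The replicate block, which treats partners as paired, changed no call among the 150 genes in the other comparisons, where the count stayed at 0 in every fit run. For ENSMOCG00000011363 the log2 difference from 6-week pairs reversed to -0.011 without the 6-week pair 18 and was 1.62 without pair 27. Depth limits the genes of low count, and 3 pairs limit every comparison with 6 weeks.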
